A study of Sus scrofa with 4 samples.

Results

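The 10 enzymes of serine, glycine and folate one-carbon metabolism described here were chosen by their gene symbols in the deposited table, which lists 16026 genes, and all 10 were found and passed the filter on low counts. They are PHGDH, PSAT1 and PSPH of serine synthesis, the serine hydroxymethyltransferases SHMT1 and SHMT2, the folate enzymes MTHFD1, MTHFD2 and MTHFD1L, and GLDC and AMT of the glycine cleavage system. RNA was sequenced from induced pluripotent stem cells of the Bamei black pig, all labelled with a stage of 26.5 days. Knockdown libraries, 2 in number, carry the label shLin28a, a short hairpin RNA against LIN28A; the 2 control libraries carry a negative control. The labels state neither whether both knockdown libraries carry 1 hairpin nor whether replicates were separate cultures or clones. The p-values therefore rest on the spread within these pairs, and that spread may be technical only.

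Cells build serine from the glycolytic intermediate 3-phosphoglycerate and then pass a one-carbon unit from serine and glycine to folate, which carries it to purine, thymidylate and methionine synthesis. The folate reactions run in parallel in the cytosol and the mitochondrion, with separate enzymes in each. LIN28A binds RNA in embryonic and other stem cells and keeps let-7 microRNAs from maturing. It has been linked with the metabolism of such cells, and serine and one-carbon enzymes are among the genes named in that connection.

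Depth was unequal, with summed counts of 8061417 and 2400985 in knockdown 1 and 2, against 11847343 and 7125640 in control 1 and 2. LIN28A was at 3.14 and 2.58 FPKM in knockdown 1 and 2, against 32.6 and 17.2 FPKM in control 1 and 2. The counts behind them were 12 and 3 in knockdown 1 and 2, against 184 and 59 in control 1 and 2. FPKM is the authors' level per length of transcript and per library size. The edgeR log2 fold change of LIN28A was −2.92 ± 0.49 (SE) with an adjusted p of 0.259, and the adjusted p in DESeq2 was 0.00855. Of the pluripotency genes checked, POU5F1 was at 16.6 FPKM or more and SOX2 at 53.5 FPKM or more in each library, while NANOG was at 0.70 FPKM or less and CDH1 at 1.09 FPKM or less. SOX2 is also a gene of neural progenitors, and of the 8 neural markers in the table NES was at 96.4 FPKM or more and MAP2 at 37.8 FPKM or more in each library, while SOX1 was listed at 0 in all 4. The pluripotency marker SALL4 was at 7.71 and 3.25 FPKM in knockdown 1 and 2, against 19.2 and 19.2 FPKM in control 1 and 2. The markers were mixed with regard to the labelled cell type.

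None of the 10 enzymes passed the test. At a Benjamini-Hochberg adjusted p under 0.05 edgeR called 0 of them, and it called 0% of the 11967 tested genes, so the count says little about these enzymes in particular. At an unadjusted p under 0.05 there were also 0 of the 10, where 7.71% of all tested genes lay under that value. DESeq2 called 0 of the 10 and 1.16% of all tested genes. The log2 fold changes, knockdown over control, were positive for 4 enzymes and negative for 6, with a median of −0.06, while 51.2% of all tested genes were positive and their median was 0.01. The values ran from −0.35 for MTHFD2 to 0.63 for PHGDH.

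**Figure D1:**
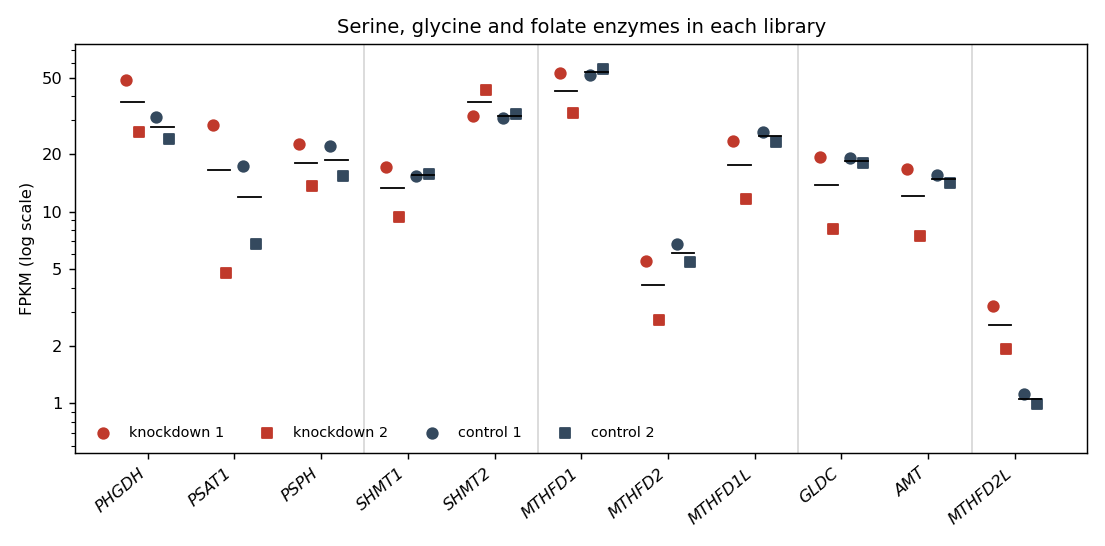
FPKM on a log scale (y axis) of the 10 enzymes and of MTHFD2L (x axis) in knockdown 1 and 2 (red) and control 1 and 2 (grey-blue), with the mean of each group as a black line and vertical lines between functional groups. The groups overlap for all 10 enzymes, while both knockdown libraries of MTHFD2L, at 3.22 and 1.91, lie above both controls, at 1.12 and 0.99.

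Serine synthesis begins with PHGDH, phosphoglycerate dehydrogenase, which oxidises 3-phosphoglycerate. PHGDH (chromosome 4, 101445977 to 101478144 of Sscrofa11.1) was at 48.7 and 26.0 FPKM in knockdown 1 and 2, against 31.1 and 24.0 FPKM in control 1 and 2. Knockdown 1 was the highest library, and knockdown 2 lay between the controls. Scaled for library composition with TMM factors, the values were 80.4 and 58.3 CPM (library-size scaled counts) in knockdown 1 and 2, against 50.2 and 40.1 CPM in control 1 and 2, and on this scale the groups did not overlap. The log2 fold change was 0.63 ± 0.25 (SE), with a 95% interval of −0.01 to 1.27, an unadjusted p of 0.0516 and an adjusted p of 0.606 in edgeR. The estimate was 0.36 without knockdown 1 and 0.81 without knockdown 2, with adjusted p of 0.322 and 0.309 in edgeR. RSEM gave PHGDH a count that was not whole in 4 of 4 libraries, so some of its reads also matched another locus and its level is an estimate.

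FPKM carries no TMM factor, so the scales differ. The TMM factor was 0.798 in knockdown 2 and lay between 1.07 and 1.10 in the other libraries. With total counts in place of TMM the median log2 fold change of all tested genes shifted to −0.18, and that of the 10 enzymes to −0.23, with 3 positive and 7 negative.

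PSAT1, phosphoserine aminotransferase, catalyses the next step and was the most variable of the enzymes. PSAT1 (chromosome 1, 231142673 to 231172364) was at 28.3 and 4.81 FPKM in knockdown 1 and 2, against 17.2 and 6.77 FPKM in control 1 and 2. Each group held a high and a low library, and the knockdown libraries enclosed both controls. The counts behind these levels were 471 and 24 in knockdown 1 and 2, against 422 and 100 in control 1 and 2. The exact Poisson interval (95%, counting error only) for knockdown 2 was 3.08 to 7.16 FPKM, below those of knockdown 1 (25.8 to 30.9 FPKM) and control 1 (15.6 to 18.9 FPKM), so counting error does not span the gap between libraries of a group. PSAT1 had a log2 fold change of 0.62 ± 0.72 (SE), with a 95% interval of −1.22 to 2.45 and an adjusted p of 0.763 in edgeR. Its sign turned on the library kept: it was −0.88 without knockdown 1 and 1.21 without knockdown 2, and 1.40 without control 1 and 0.09 without control 2.

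PSPH, phosphoserine phosphatase, releases serine in the last step. PSPH (chromosome 3, 16877904 to 16903062) was at 22.4 and 13.6 FPKM in knockdown 1 and 2, against 22.1 and 15.3 FPKM in control 1 and 2. The first library of each group was higher than the second, and the groups overlapped almost fully. The log2 fold change of 0.15 ± 0.27 (SE) had a 95% interval of −0.54 to 0.84 (adjusted p of 0.848 in edgeR), and it changed sign with total counts, to −0.03, and without knockdown 1 or control 2, to −0.04 and −0.08. Summed over the 3 genes of serine synthesis, the level was 99.4 and 44.5 FPKM in knockdown 1 and 2, against 70.4 and 46.1 FPKM in control 1 and 2. Fewer cells that express a gene and less RNA per cell cannot be told apart in such bulk libraries.

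The serine hydroxymethyltransferases split serine into glycine and a one-carbon unit on tetrahydrofolate, SHMT2 in the mitochondrion and SHMT1 in the cytosol. SHMT2 (chromosome 5, 22535780 to 22540322) was at 31.6 and 43.0 FPKM in knockdown 1 and 2, against 31.0 and 32.5 FPKM in control 1 and 2. Only knockdown 2 stood above the other libraries, and SHMT2 was the sole enzyme of the 10 that was higher in knockdown 2 than in knockdown 1. For SHMT2 the log2 fold change was 0.49 ± 0.33 (SE), with a 95% interval of −0.33 to 1.32 and an adjusted p of 0.631 in edgeR. Without knockdown 1 it was 0.88 and passed the test (adjusted p of 0.0428 in edgeR), in a fit that called 9.88% of all tested genes, and without knockdown 2 it was −0.02. SHMT2 had counts that were not whole in 3 of 4 libraries and SHMT1 in 1 of 4.

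SHMT1 (chromosome 12, 60414421 to 60435451) was at 17.2 and 9.37 FPKM in knockdown 1 and 2, against 15.3 and 15.7 FPKM in control 1 and 2. Knockdown 1 was the highest and knockdown 2 the lowest library, while the controls were close to each other (SD 0.311 FPKM, n = 2). SHMT1 had a log2 fold change of −0.03 ± 0.22 (SE), with a 95% interval of −0.59 to 0.54 and an adjusted p of 0.972 in edgeR. Without knockdown 2 its sign was positive, at 0.13, and without control 2 it was 0.02.

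The one-carbon unit then passes between oxidation states. MTHFD1, the trifunctional enzyme of the cytosol, carries out these steps on cytosolic folate. MTHFD1 (chromosome 7, 88471317 to 88533690) was at 52.8 and 32.9 FPKM in knockdown 1 and 2, against 51.9 and 55.4 FPKM in control 1 and 2. Knockdown 1 lay between the controls and knockdown 2 below them. MTHFD1 had a log2 fold change of −0.13 ± 0.23 (SE), with a 95% interval of −0.71 to 0.45 and an adjusted p of 0.843 in edgeR. With SHMT1 it made up a cytosolic level of 70.0 and 42.2 FPKM in knockdown 1 and 2, against 67.2 and 71.1 FPKM in control 1 and 2.

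MTHFD2, a mitochondrial dehydrogenase and cyclohydrolase of embryonic and proliferating cells, was the lowest of the enzymes. MTHFD2 (chromosome 3, 68819171 to 68833641) was at 5.55 and 2.71 FPKM in knockdown 1 and 2, against 6.76 and 5.44 FPKM in control 1 and 2. Knockdown 1 fell between the controls, and knockdown 2, with 23 counts, was below them. Its log2 fold change was −0.35 ± 0.28 (SE), with a 95% interval of −1.06 to 0.36 and an adjusted p of 0.673 in edgeR. It was −0.74 without knockdown 1 and −0.15 without knockdown 2.

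MTHFD1L, the mitochondrial enzyme that releases formate for export to the cytosol, was several times as abundant as MTHFD2. MTHFD1L (chromosome 1, 15140929 to 15330265) was at 23.3 and 11.7 FPKM in knockdown 1 and 2, against 26.1 and 23.2 FPKM in control 1 and 2. Knockdown 1 and control 2 were all but equal, and knockdown 2 was the lowest library. On the TMM scale the groups did not overlap, with 79.8 and 54.1 CPM in knockdown 1 and 2, against 87.5 and 80.1 CPM in control 1 and 2. MTHFD1L had a log2 fold change of −0.31 ± 0.26 (SE), with a 95% interval of −0.96 to 0.33 and an adjusted p of 0.676 in edgeR; it was −0.64 without knockdown 1 and −0.09 without knockdown 2. Of the 10 enzymes, 1 lay wholly higher (PHGDH) and 1 wholly lower (MTHFD1L) in the knockdown on that scale, where 18.8% of all tested genes lay wholly higher and 22.9% wholly lower, 41.7% in all. These 2 of 10 were thus fewer than the background share.

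Glycine is broken down in the mitochondrion by the glycine cleavage system, which also loads folate. Its P protein GLDC, which decarboxylates glycine (chromosome 1, 215608854 to 215715062), was at 19.3 and 8.14 FPKM in knockdown 1 and 2, against 19.1 and 17.9 FPKM in control 1 and 2. Its T protein AMT, which moves the one-carbon unit to folate (chromosome 13, 31995600 to 32002514), was at 16.7 and 7.50 FPKM in knockdown 1 and 2, against 15.4 and 14.2 FPKM in control 1 and 2. For both genes knockdown 1 was the highest library and knockdown 2 the lowest. The log2 fold change was −0.25 ± 0.30 (SE) for GLDC, with a 95% interval of −1.02 to 0.52, and −0.10 ± 0.28 (SE) for AMT, with a 95% interval of −0.81 to 0.62. Their adjusted p in edgeR was 0.767 and 0.910. Without knockdown 2 both signs were positive, at 0.05 for GLDC and 0.16 for AMT. Without knockdown 1 the values were −0.75 and −0.54.

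The other 2 subunits of that system, were not called either. GCSH, the H protein that carries the lipoyl arm, was at 44.9 and 17.9 FPKM in knockdown 1 and 2, against 49.2 and 38.7 FPKM in control 1 and 2 (log2 fold change −0.30 ± 0.33 SE, adjusted p of 0.747 in edgeR). DLD, the L protein shared with other dehydrogenase complexes, was at 102 and 80.2 FPKM in knockdown 1 and 2, against 104 and 114 FPKM in control 1 and 2 (log2 fold change −0.04 ± 0.23 SE, adjusted p of 0.960 in edgeR). In FPKM the knockdown libraries of DLD lay below both controls, but on the TMM scale the groups overlapped.

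**Figure D2:**
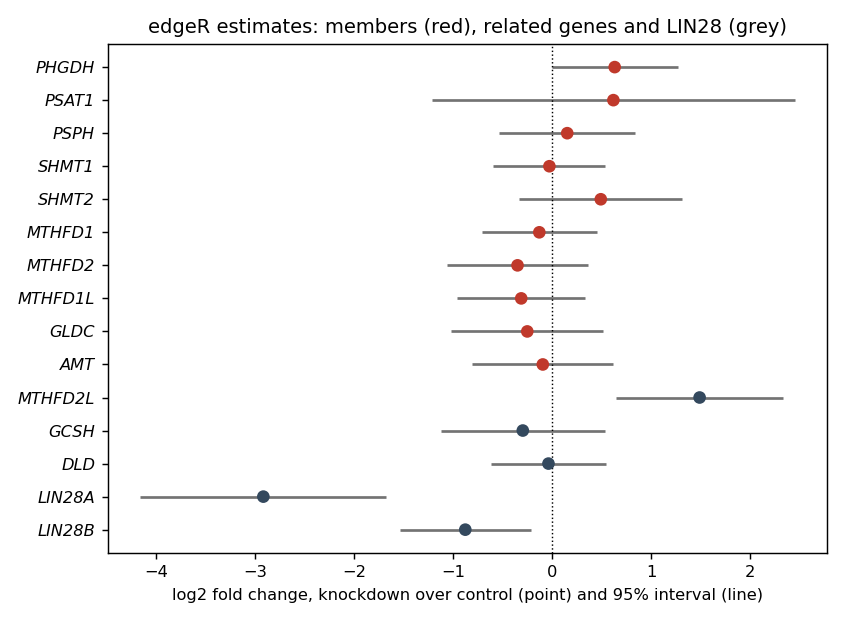
The edgeR log2 fold change of knockdown over control (x axis, points) with its 95% interval (grey lines) for the 10 enzymes (red points) and for MTHFD2L, GCSH, DLD, LIN28A and LIN28B (grey-blue points), 1 gene per row. The intervals of all 10 enzymes include 0, that of PHGDH narrowly, from −0.01 to 1.27.

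MTHFD2L, a paralogue of MTHFD2 in the mitochondrion better known from adult tissues, had a positive fold change where that of MTHFD2 was negative. MTHFD2L (chromosome 8, 70179701 to 70288356) was at 3.22 and 1.91 FPKM in knockdown 1 and 2, against 1.12 and 0.99 FPKM in control 1 and 2. Both knockdown libraries lay above both controls. The counts were 96 and 17 in knockdown 1 and 2, against 49 and 26 in control 1 and 2. The exact Poisson interval (95%, counting error only) for knockdown 2 was 1.11 to 3.06 FPKM. It overlapped those of control 1 (0.83 to 1.48 FPKM) and control 2 (0.65 to 1.45 FPKM). That of knockdown 1, 2.61 to 3.93 FPKM, did not overlap the controls. MTHFD2L had a log2 fold change of 1.49 ± 0.33 (SE), with a 95% interval of 0.65 to 2.33 and an unadjusted p of 0.00574. The adjusted p was 0.357 in edgeR and 0.178 in DESeq2, so it did not pass the test over all genes. Without each library in turn the log2 fold change stayed between 1.29 and 1.60.

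Ratios of FPKM within a library do not depend on how libraries are scaled, and 7 such ratios were computed. With 2 libraries against 2 the exact two-sided permutation test cannot go below p = 0.333, and adjusted over the 7 ratios it cannot pass the threshold. MTHFD2L stood to MTHFD2 at 0.580 and 0.705 in knockdown 1 and 2, against 0.166 and 0.182 in control 1 and 2. The knockdown mean was 1.88 higher on the log2 scale, a 3.68-fold difference with no overlap (exact permutation p = 0.333, adjusted 0.778), and it lay between 1.74 and 2.02 without each library in turn. This was the largest of the 7 differences, and MTHFD2 stayed the more abundant of the pair in all 4 libraries.

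The ratio of the mitochondrial SHMT2 to the cytosolic SHMT1 was 1.84 and 4.59 in knockdown 1 and 2, against 2.03 and 2.07 in control 1 and 2. Only knockdown 2 departed from a ratio near that of the controls, and without it the mean difference of 0.51 on the log2 scale became −0.15. PSPH stood to PHGDH at 0.460 and 0.524 in knockdown 1 and 2, against 0.710 and 0.639 in control 1 and 2, a log2 difference of −0.45 with no overlap. GLDC stood to AMT at 1.16 and 1.08 in knockdown 1 and 2, against 1.23 and 1.27 in control 1 and 2, a log2 difference of −0.16 with no overlap. Both had an exact permutation p of 0.333, the smallest this design gives, and an adjusted p of 0.778 over the 7 ratios.

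The remaining ratios overlapped between the groups. MTHFD2 stood to MTHFD1 at 0.105 and 0.0825 in knockdown 1 and 2, against 0.130 and 0.0982 in control 1 and 2. MTHFD1L stood to MTHFD1 at 0.440 and 0.356 in knockdown 1 and 2, against 0.504 and 0.419 in control 1 and 2. PSAT1 stood to PHGDH at 0.580 and 0.185 in knockdown 1 and 2, against 0.554 and 0.282 in control 1 and 2. In these 3 ratios the second library of each group was below the first.

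**Figure D3:**
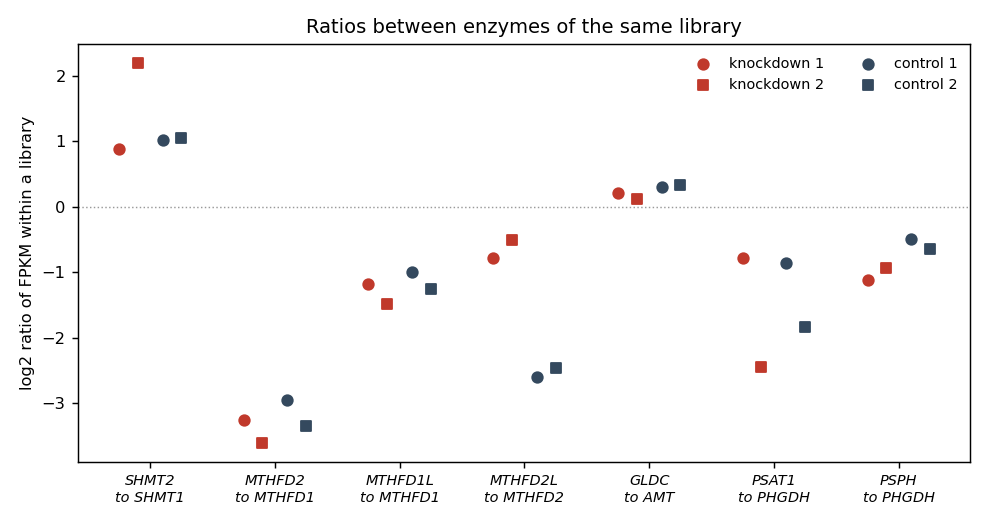
The log2 ratio of FPKM between 2 enzymes of the same library (y axis) for 7 pairs (x axis) in knockdown 1 and 2 (red) and control 1 and 2 (grey-blue). The ratio of MTHFD2L to MTHFD2 is higher in both knockdown libraries, at −0.79 and −0.50, than in both controls, at −2.59 and −2.46, and the ratio of SHMT2 to SHMT1 stands apart in knockdown 2 alone, at 2.20.

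Ordered by level per length, MTHFD1 was the most abundant and MTHFD2 the least abundant of the 10 enzymes in both groups. In the knockdown MTHFD1 averaged 42.8 ± 14.1 FPKM, PHGDH 37.4 ± 16.0 FPKM and SHMT2 37.3 ± 8.05 FPKM (SD, n = 2). These 3 were not separated from each other, but SHMT2 was above PSPH, at 18.0 ± 6.21 FPKM, in both libraries. From PSPH down through MTHFD1L, PSAT1, GLDC, SHMT1 and AMT no neighbour in the knockdown order was separated from the next. MTHFD2, at 4.13 ± 2.01 FPKM, was separated from AMT above it.

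The controls gave a tighter order. MTHFD1, at 53.7 ± 2.46 FPKM, was separated from SHMT2, at 31.7 ± 1.07 FPKM (SD, n = 2), and PHGDH and MTHFD1L followed SHMT2 without separation. MTHFD1L, at 24.7 ± 2.08 FPKM, was above PSPH, and GLDC, at 18.5 ± 0.799 FPKM, was above SHMT1, at 15.5 ± 0.311 FPKM, in both libraries. MTHFD1 exceeded 88.3% of the genes in the table in the knockdown and 90.5% in the controls, and MTHFD2 exceeded 45.2% in the knockdown and 49.9% in the controls.

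For 9 of the 10 enzymes the log2 difference between the knockdown libraries was larger in size than the log2 fold change between the groups. PHGDH was the exception. The same count was not made over all tested genes, so it is not shown to be particular to these enzymes. On the TMM scale 9 of the 10 enzymes were lower in knockdown 2 than in knockdown 1, with a median log2 difference of −0.51, against 56.0% of all tested genes, whose median was −0.09. The differences ran from −2.10 for PSAT1 to −0.26 for MTHFD1, and SHMT2 was the exception at 0.87. Control 2 was below control 1 for 7 of the 10 enzymes (median −0.10) and for 5978 of the 11967 tested genes. PSAT1 had the largest such difference there too, at −1.28, which was lower than in all but 0.668% of the tested genes. In the knockdown pair the PSAT1 difference was lower than in all but 0.777% of them.

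**Figure D4:**
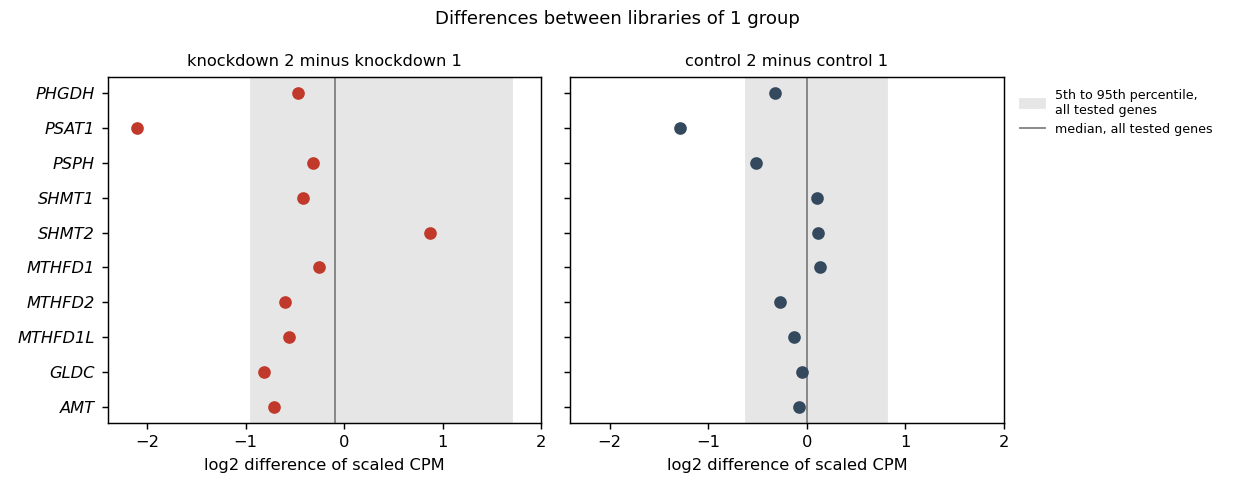
The log2 difference of TMM-scaled CPM (x axis) between knockdown 2 and knockdown 1 (left, red) and between control 2 and control 1 (right, grey-blue) for the 10 enzymes, 1 per row, with the 5th to 95th percentile of all tested genes as a grey band and their median as a line. PSAT1 lies below the band in both panels, at −2.10 and −1.28, and SHMT2 alone lies above 0 on the left.

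Relative to the control mean, the median of the 10 enzymes was 0.11 in knockdown 1 and −0.40 in knockdown 2 on the log2 scale. Marker genes of other cell types also differed between the libraries. The 16 fibroblast markers in the table, of 17 listed, summed to 526 and 1336 FPKM in knockdown 1 and 2, against 366 and 601 FPKM in control 1 and 2. COL1A1, a fibroblast collagen, was at 56.5 and 206 FPKM in knockdown 1 and 2, against 17.6 and 52.8 FPKM in control 1 and 2. DCN and COL6A3 were listed at 0 in both knockdown libraries and LUM in knockdown 2 and both controls. The 13 proliferation genes, all in the table, summed to 1471 and 919 FPKM in knockdown 1 and 2, against 1545 and 1498 FPKM in control 1 and 2, and 11 of 13 were lower in knockdown 2 than in knockdown 1 on the TMM scale. The 11 pluripotency genes in the table, of 14 listed, summed to 241 and 136 FPKM in knockdown 1 and 2, against 262 and 234 FPKM in control 1 and 2. The 8 neural markers in the table, of 9 listed, summed to 416 and 179 FPKM in knockdown 1 and 2, against 247 and 167 FPKM in control 1 and 2. Most of each sum came from NES, at 292 and 112 FPKM in knockdown 1 and 2, against 143 and 96.4 FPKM in control 1 and 2. Of the 7 tested neural markers 4 lay wholly higher in the knockdown on the TMM scale, beside 18.8% of all tested genes. Of these 7, 3 had an unadjusted p under 0.05 in edgeR and 2 were called in DESeq2, beside 7.71% and 1.16%. Their median log2 fold change was 0.90, with 5 positive and 2 negative. Of the 8 tested pluripotency genes, LIN28A and LIN28B among them, 4 lay wholly lower, beside 22.9% of all tested genes, and 1 wholly higher. There 4 had an unadjusted p under 0.05 in edgeR and 2 were called in DESeq2, beside 7.71% and 1.16%, with a median of −0.58. LIN28A, the target of the hairpin, is among the wholly lower, the unadjusted and the DESeq2 genes, so part of each count was set by the design. LIN28B is among the wholly lower and the unadjusted genes. Of the 13 tested fibroblast markers, with a median of 1.38, 12 had a positive log2 fold change, beside 51.2% of all tested genes. On the TMM scale 2 of the 13 lay wholly higher and 1 wholly lower, beside 18.8% and 22.9%. Relative to the control mean, the median of the fibroblast markers was −0.24 in knockdown 1 and 2.25 in knockdown 2. The 6 blood markers summed to 7.37 and 21.5 FPKM in knockdown 1 and 2, against 4.30 and 6.72 FPKM in control 1 and 2, with PTPRC at 0.08 FPKM or less throughout. The 3 endoderm markers in the table, of 7 listed, summed to 19.2 and 23.2 FPKM in knockdown 1 and 2, against 57.0 and 71.6 FPKM in control 1 and 2, nearly all of it from APOA1. Of the liver markers, listed because adult liver is rich in GLDC and SHMT1, 3 of 6 were in the table and summed to 0.44 FPKM or less in each library. The part of cell makeup, proliferation or depth in the enzymes' lower values in knockdown 2 was not tested.

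Beyond the members, 95 further genes of the pathway were listed, of which 86 were in the table and 79 were tested; 7 were in the table but did not pass the filter on low counts, and 9 were not analysed here. None was called in edgeR (0 of 79, and 5 at an unadjusted p under 0.05, 4 higher and 1 lower) or in DESeq2. Among these 79 genes the log2 fold change was above 0 for 33 and below 0 for 46 (median −0.05); 8 lay wholly higher and 17 wholly lower in the knockdown on the TMM scale, beside 18.8% and 22.9% of all tested genes. The sign split depended on scaling: with total counts 25 were positive and 54 negative. The medians of the lists ran from −0.16 to 0.25 apart from the amino acid response list, at 0.61.

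Folate uptake and interconversion had 14 tested genes, 5 positive and 9 negative, with a median of −0.13. The smallest p among them was that of MTHFD2L, given above. Serine and glycine handling had 9 tested genes, 1 positive and 8 negative, with a median of −0.16. Its smallest p were those of the subunits of serine palmitoyltransferase, which starts sphingolipid synthesis from serine. SPTLC1 was at 8.56 and 6.08 FPKM in knockdown 1 and 2, against 11.7 and 12.4 FPKM in control 1 and 2 (log2 fold change −0.51 ± 0.20 SE, adjusted p of 0.606 in edgeR). SPTLC2 was at 11.3 and 23.2 FPKM in knockdown 1 and 2, against 11.9 and 13.8 FPKM in control 1 and 2 (log2 fold change 0.72 ± 0.49 SE, adjusted p of 0.633 in edgeR).

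Amino acid transport had 11 tested genes, 3 positive and 8 negative, with a median of −0.12. SLC38A4, a system A transporter of neutral amino acids, was at 1.85 and 0.88 FPKM in knockdown 1 and 2, against 5.97 and 3.53 FPKM in control 1 and 2. Both knockdown libraries were below both controls, with a log2 fold change of −1.60 ± 0.39 (SE), an unadjusted p of 0.00814 and an adjusted p of 0.408 in edgeR. SFXN1, a mitochondrial serine transporter, was at 24.8 and 15.4 FPKM in knockdown 1 and 2, against 31.4 and 31.9 FPKM in control 1 and 2 (log2 fold change −0.39 ± 0.21 SE, adjusted p of 0.606 in edgeR). SFXN1 also lay below both controls in both knockdown libraries.

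Purine synthesis, which uses formyl folate, had 13 tested genes, 4 positive and 9 negative, with a median of −0.12. On the TMM scale 5 of the 13 lay wholly lower in the knockdown, beside 22.9% of all tested genes. PRPS2, which makes phosphoribosyl pyrophosphate, was at 20.9 and 13.1 FPKM in knockdown 1 and 2, against 28.3 and 23.1 FPKM in control 1 and 2 (log2 fold change −0.40 ± 0.21 SE, adjusted p of 0.606 in edgeR). PFAS, an amidotransferase of the same pathway, was at 4.42 and 3.32 FPKM in knockdown 1 and 2, against 5.75 and 5.64 FPKM in control 1 and 2 (log2 fold change −0.34 ± 0.19 SE, adjusted p of 0.606 in edgeR). The methionine cycle had 7 tested genes, 4 positive and 3 negative, with a median of 0.11. MAT2A, which makes S-adenosylmethionine, was at 206 and 422 FPKM in knockdown 1 and 2, against 152 and 194 FPKM in control 1 and 2 (log2 fold change 1.17 ± 0.52 SE, adjusted p of 0.606 in edgeR). AHCYL1, a relative of the hydrolase that clears S-adenosylhomocysteine, was at 56.6 and 155 FPKM in knockdown 1 and 2, against 57.8 and 63.6 FPKM in control 1 and 2 (log2 fold change 0.53 ± 0.37 SE, adjusted p of 0.634 in edgeR). Knockdown 2 was the highest library for both.

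Choline-derived one-carbon genes had 2 tested members. CHDH, choline dehydrogenase, had a log2 fold change of 0.45 ± 0.60 (SE) and ALDH7A1, an aldehyde dehydrogenase that also acts on betaine aldehyde, one of −0.13 ± 0.22 (SE). At the branch point where 3-phosphoglycerate leaves glycolysis, 2 of 4 genes were positive. PGK1, which makes 3-phosphoglycerate, was at 591 and 1191 FPKM in knockdown 1 and 2, against 676 and 681 FPKM in control 1 and 2. GAPDH, the enzyme before it, was at 3994 and 6346 FPKM in knockdown 1 and 2, against 4621 and 4444 FPKM in control 1 and 2. For both, knockdown 2 was above and knockdown 1 below the controls, and their adjusted p in edgeR was 0.648 and 0.717.

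Among regulators, 5 of 7 were positive, with a median of 0.25. ATF4, the factor known to induce PHGDH, PSAT1 and other serine genes under amino acid shortage, was at 245 and 145 FPKM in knockdown 1 and 2, against 218 and 217 FPKM in control 1 and 2 (log2 fold change 0.02 ± 0.25 SE). It was named after its values were seen. MYC, a transcription factor known to induce SHMT2 and other enzymes of the pathway, was at 15.4 and 7.34 FPKM in knockdown 1 and 2, against 5.64 and 3.02 FPKM in control 1 and 2. Both knockdown libraries were above both controls, with a log2 fold change of 1.58 ± 0.39 (SE), an unadjusted p of 0.00838 and an adjusted p of 0.414 in edgeR. NFE2L2, the oxidative stress factor, was at 17.9 and 22.4 FPKM in knockdown 1 and 2, against 15.2 and 17.7 FPKM in control 1 and 2 (log2 fold change 0.55 ± 0.32 SE, adjusted p of 0.613 in edgeR).

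The amino acid response list of ATF4 targets had 12 tested genes, 8 positive and 4 negative, with a median of 0.61. On the TMM scale 3 of the 12 lay wholly higher in the knockdown, beside 18.8% of all tested genes. The median relative to the control mean was 0.70 in knockdown 1 and 0.21 in knockdown 2, and control 2 was 0.44 below control 1. SLC7A11, the cystine transporter, was at 6.97 and 6.33 FPKM in knockdown 1 and 2, against 5.37 and 3.08 FPKM in control 1 and 2 (log2 fold change 0.88 ± 0.31 SE, adjusted p of 0.606 in edgeR). CEBPB, a partner of ATF4, was at 3.32 and 18.4 FPKM in knockdown 1 and 2, against 1.41 and 2.48 FPKM in control 1 and 2 (log2 fold change 2.76 ± 1.03 SE, adjusted p of 0.606 in edgeR). Both were higher in both knockdown libraries, CEBPB chiefly in knockdown 2. The levels of CEBPB rest on few counts, 24 and 40 in knockdown 1 and 2, against 15 and 16 in control 1 and 2.

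LIN28B, the paralogue of LIN28A, was at 13.7 and 10.2 FPKM in knockdown 1 and 2, against 25.1 and 19.0 FPKM in control 1 and 2, with no overlap (log2 fold change −0.88 ± 0.26 SE, adjusted p of 0.541 in edgeR).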

How the data were processed

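Polyadenylated RNA was sequenced on the BGISEQ-500, per the labels' protocols. The submitters' processing notes name Bowtie2, RSEM 1.2.12 and the build Sscrofa11.1; strandedness is not given in the sources used here. The deposited expected counts are the authors' RSEM estimates per gene. The authors' second set of values is read as FPKM: for 3 genes with 1 exon the library total they imply was 1.02 to 1.04 times the summed counts, taking effective length as length less 200. Positions are those of RefSeq on Sscrofa11.1.

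After rounding of the expected counts, the quasi-likelihood test of edgeR 4.0.16 in R 4.3.3 was run with TMM factors, filterByExpr and no covariate. It covered 11967 genes, and calls needed a Benjamini-Hochberg adjusted p below 0.05. Errors of fold changes and 95% intervals come from that fit. DESeq2 1.42.0 and limma 3.58.1 served as alternatives. TMM-scaled CPM uses a prior count of 2. The edgeR procedure was tested on simulated data, with planted changes larger than those of the 10 enzymes and less spread than in these libraries. That test does not show how well changes of the enzymes' size would be found. Intervals on levels cover counting error only. The enzymes and lists were chosen with earlier results of these data known. The genes named are the 10 enzymes, LIN28A, LIN28B, MTHFD2L, GCSH, DLD and, per list, any called gene and the 2 with the smallest unadjusted p; marker genes and ATF4 were added after their values were seen. A result that this rule names is not reported here.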

Additional observations from a re-analysis of the deposited data

How the results depend on the processing

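The titles' last digits are 1 and 2 in both groups, but the labels do not say that they mark a shared batch or day, so libraries may share only a number. Over the 11967 tested genes the deviations of same-numbered libraries from their group means correlated at 0.564. A fit with this replicate block was added after seeing the data, with 1 residual degree of freedom. In edgeR it called 1338 of the 11967 tested genes, 0 of the 10 enzymes and 9 of the 79 pathway genes. The share of pathway genes called was thus near that of all tested genes. MTHFD2L (1.49), LIN28A (−3.08) and LIN28B (−0.90) passed there, with adjusted p of 0.00199, 4.31e-09 and 0.00852 in edgeR; PHGDH (0.62) did not, at 0.108. Over all tested genes edgeR called 0; the count was 0 also with DESeq2 size factors or upper-quartile factors, 8 with total counts, 40 with every gene of at least 1 count, 139 with the DESeq2 test, 1 and 2 with limma on log2 of FPKM plus 1 and plus 0.1, and 0 to 1204 without each library in turn. The largest count came without knockdown 1. In those fits the lone library of a group is assumed to vary like the other group. Of the 10 enzymes, 0 to 1 were called without each library, SHMT2 without knockdown 1, and 0 under the other alternatives; of the 79 further pathway genes, 0 to 7 were called without each library. Of these genes 33 were positive and 46 negative; with total counts the numbers were 25 and 54, and with limma on FPKM 24 and 55.

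The sign of PSPH, 0.15, changed to −0.034 with total counts and with limma to −0.068 (1 FPKM added) and −0.072 (0.1 FPKM added). Without each library in turn the log2 fold changes ranged from −0.083 to 0.43 for PSPH, −0.88 to 1.40 for PSAT1, −0.017 to 0.88 for SHMT2, −0.27 to 0.13 for SHMT1, −0.75 to 0.055 for GLDC, −0.54 to 0.16 for AMT, −0.85 to 0.016 for GCSH and −0.13 to 0.063 for DLD. PHGDH (0.36 to 0.81), MTHFD1 (−0.27 to −0.03), MTHFD2 (−0.74 to −0.15) and MTHFD1L (−0.64 to −0.09) kept their signs in all alternatives run, and no enzyme changed sign under the block. Leaving out libraries for the ratios was added after seeing the data: the log2 differences then ranged from −0.15 to 1.16 for SHMT2 to SHMT1 and from −1.10 to 0.55 for PSAT1 to PHGDH, and the other 5 kept their signs. Knockdown 2 was the shallowest library: 3 counts there equal 1.25 CPM, and PSAT1, MTHFD2 and MTHFD2L rest on 24, 23 and 17 counts in it. Other causes of its distance from knockdown 1 were not tested.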
